A study of Macaca fascicularis and Macaca mulatta with 24 samples.

Results

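The genes described here encode the initiation and elongation factors that carry out protein synthesis, with the kinases, exchange factors and binding proteins that control them. They were chosen by name: every non-control probe whose gene name, or whose bracketed symbol in the probe description, starts with EIF1 to EIF6, EIF2AK, EIF4E, EIF4G, EEF1 or EEF2 was taken, and each gene was read from its brightest probe. The rule found 53 probes for 48 genes among 18608 named genes and unnamed probes on the array. EIF3S1 was well above background in the sample channel on 5 arrays only and did not pass the filter on dim probes, which left 47 genes among the 15957 that were tested. By role, 6 of the 47 act in the ternary complex and start codon selection. Subunits of the exchange factor EIF2B number 5 and EIF2 kinases 3, while 9 genes belong to EIF3, 3 bind EIF4E and 2 are EIF5A forms. By name, 11 were grouped with the cap-binding complex EIF4F and its helicases, and 6 with elongation. These last groups include relatives of the core factors, such as EIF4E2 and EIF4G2. The other 2, EIF2C2 and EIF2C3, are older symbols of the Argonaute proteins AGO2 and AGO3, which act in RNA silencing and match the rule by name only. EIF3S7 and EIF3S10 are likewise older symbols, of EIF3D and EIF3A.

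The samples were frozen cortex biopsies of cynomolgus macaques in which the middle cerebral artery of the right side had been blocked, an experimental stroke. Every animal had this occlusion, and 5 min later each received an intravenous dose of placebo or of TatNR2B9c at 2.6 mg/kg, a peptide that separates the NMDA receptor from the scaffold protein PSD-95. Biopsies came from the ischemic right cortex and from the non-ischemic left cortex at 1 h or 6 h, which gave 8 groups of 3 animals (placebo or TatNR2B9c, left or right, 1 h or 6 h) and 24 arrays. No cortex from an animal without a stroke was measured, and the left cortex was the within-animal control. Left and right arrays with the same treatment, time and animal number were read as the same animal, which the labels do not say in words.

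Initiation begins when EIF2, bound to GTP and the initiator tRNA, joins the small ribosomal subunit; EIF2B recharges EIF2 with GTP, and kinases that phosphorylate the EIF2 alpha subunit block that recharging. A second control acts at the mRNA cap, where EIF4E, the scaffold EIF4G and the helicase EIF4A form EIF4F, and the EIF4E-binding proteins hold EIF4E until mTOR signalling releases it. In elongation EEF1A brings aminoacyl-tRNA to the ribosome and EEF2 moves it along the mRNA, unless EEF2K has phosphorylated EEF2. In ischemic brain these controls are known mainly as changes in phosphorylation and in translation rate, which arrays of RNA do not measure.

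Each array compared cortex RNA labelled with Cy5 against a Universal Reference RNA labelled with Cy3. Loess normalisation set 0 at the usual log2 ratio of spots of like intensity on an array. A log2 ratio of 0 therefore need not mean equal signal in cortex and reference. Ratios of different genes do not rank their amounts. Dyes were not swapped, so a dye effect on a probe is part of every ratio given here. The arrays fall into 3 campaigns by the version of the image extraction software: placebo at 1 h, placebo at 6 h and all TatNR2B9c arrays. Campaign cannot be told apart from treatment or from time in placebo animals, whereas right against left and time under TatNR2B9c lie within a campaign. Scan days still differed within campaigns. In placebo cortex at 6 h, left arrays 1 and 3 were scanned on day 2, and left array 2 and all right arrays on day 3. Left and right arrays of these placebo animals were also on different slides. Under TatNR2B9c, arrays 1 and 2 of each side at 6 h were scanned on day 5 and all others on day 4. Reference spots well above background made up 15.7 to 51.7% of probes on the placebo 1 h arrays, 84.3 to 92.5% on the placebo 6 h arrays and 51.8 to 99.3% on the TatNR2B9c arrays. On 3 arrays it was under 25%: arrays 1 and 3 of placebo left cortex and array 3 of placebo right cortex, all at 1 h; these are called weak-reference arrays below. The SD of log2 ratios over the genes was 0.36 to 1.09, 1.5 to 1.67 and 0.81 to 1.39 in the 3 campaigns, so ratios lay closer to 0 on the placebo 1 h arrays than on the placebo 6 h arrays. Of the tissue markers, 9 of 10 neuronal genes were measured, and their mean log2 ratio was above 0 on every array, from 0.34 to 4.16, which fits the label of cortex; microglial genes lay between −1.41 and −0.06 and endothelial genes between −0.85 and 0.12. In such bulk RNA, fewer cells of a type and less RNA per cell cannot be told apart. All p-values are two-sided, from limma with Benjamini-Hochberg adjustment over all genes tested and called at an adjusted p under 0.05. They rest on the spread between the 3 animals of a group, pooled over the 8 groups. Right against left, its intervals and the interactions were thus tested without pairing the sides of an animal. The alternative fit with the animal as a block called no member in these comparisons either.

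In the ratios after loess, several paralogs lay on opposite sides of 0. EEF1A2, the EEF1A form of adult neurons and muscle, was above 0 on 23 of 24 arrays, with a lowest ratio of −0.78, a median of 1.59 and a highest of 2.54. EEF1A1, the widespread form, was below 0 on 23 of 24, with a lowest ratio of −3.69, a median of −0.95 and a highest of 0. The same split was seen between the helicases EIF4A2 (above 0 on 22 arrays, median 1.56) and EIF4A1 (below 0 on 23, median −0.9). A smaller one was seen between EIF5A2 (above 0 on 21, median 0.19) and EIF5A (below 0 on 21, median −0.29). The EIF5A probe was dim, with sample spots well above background on 15 of 24 arrays. EIF5A is the hypusine-bearing factor of elongation and termination, and EIF5A2 its tissue-restricted paralog. EIF4E, the cap-binding protein, was above 0 on 18 arrays and EIF4E3 on 21, while EIF4E2, a cap-binding homolog that represses translation because it does not hold EIF4G, was below 0 on all 24. EIF4G3 was above 0 on all 24 and EIF4G1, the main scaffold, below 0 on all 24. These are levels after loess, relative to a reference pool whose tissues are not given in the sources used here. The sides of 0 were not counted under another normalisation. Centring each array on its median gave median member differences of −2.15 and −2.5 for placebo time, right and left.

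The probes behind these splits share little sequence: the longest run shared between the 60-base probes of EEF1A1 and EEF1A2 was 6 bases, that between EIF4A1 and EIF4A2 was 5, and that between EIF5A and EIF5A2 was 7. The first 30 of 60 bases of the EEF1A1 probe (build rheMac2, chr4:69759149-69759208, minus strand) and of the EEF1A2 probe (chr10:869499-869558, plus strand) are shown because these closely related proteins are told apart by them; no base is singled out, so all are in lower case.
EEF1A1: aaggaaaggagaatgttttgtggaccactt
EEF1A2: ggcttccgcgcccagcgctcgccacgctca

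Other members kept 1 side on 22 or more of the 24 arrays. EIF1AX, a scanning factor, and EIF2C3 were above 0 on all 24 arrays, and the EIF4E-binding proteins EIF4EBP1 and EIF4EBP2 were below 0 on all 24. EEF1G, a subunit of the EEF1 exchange complex, was below 0 on 23. Within EIF3, the complex that joins the small subunit to the mRNA, EIF3E and EIF3F were below 0 on 23 arrays and EIF3G, EIF3H and EIF3I on 22, whereas EIF3K was above 0 on 22. The heat map of all 47 genes shows these sides. Its palest column is weak-reference array 1 of placebo left cortex at 1 h, where the members had an SD of 0.34. Weak-reference arrays 3 of left and right cortex had SDs of 0.73 and 0.65, beside 0.7, 0.77 and 0.82 on the other placebo 1 h arrays.

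**Figure D1:**
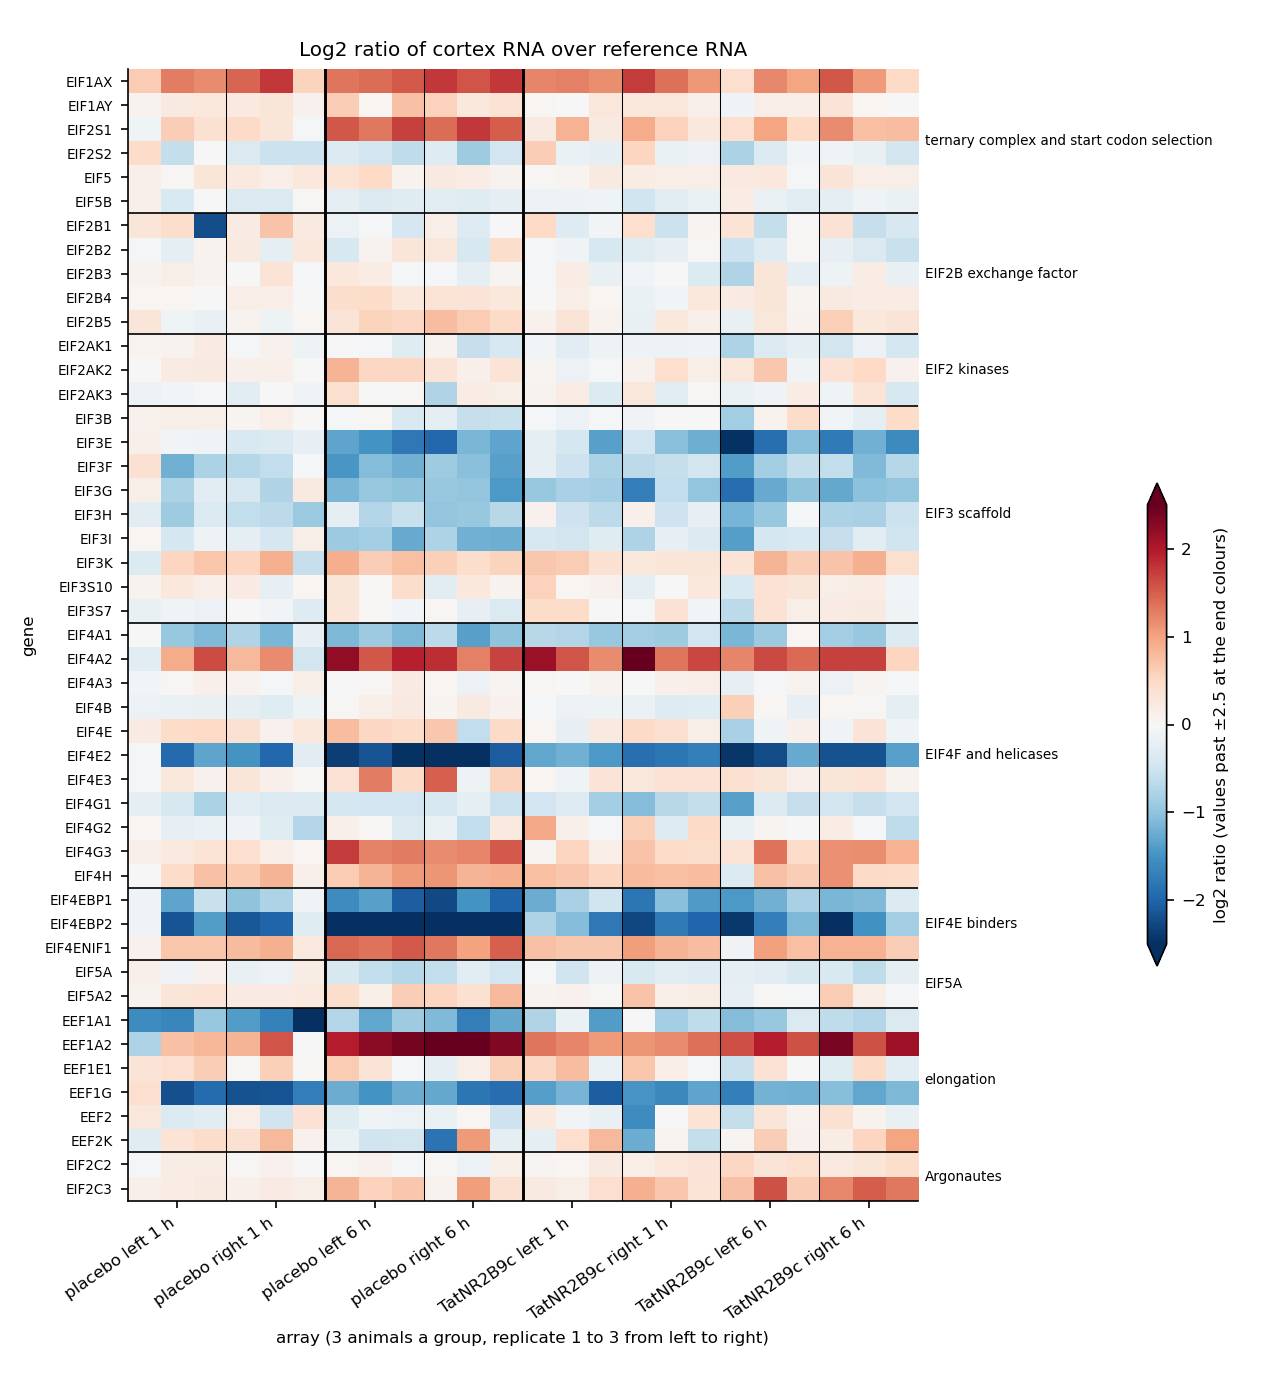
Heat map of log2 ratios of cortex over reference for 47 genes (rows, ordered by role) on 24 arrays (columns, by group and animal), with red above 0 and blue below 0 and colours limited at ±2.5. Of the 47 genes 7 keep 1 side of 0 on all 24 arrays (3 above and 4 below), and the placebo 1 h columns are paler than the placebo 6 h columns.

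**Figure D2:**
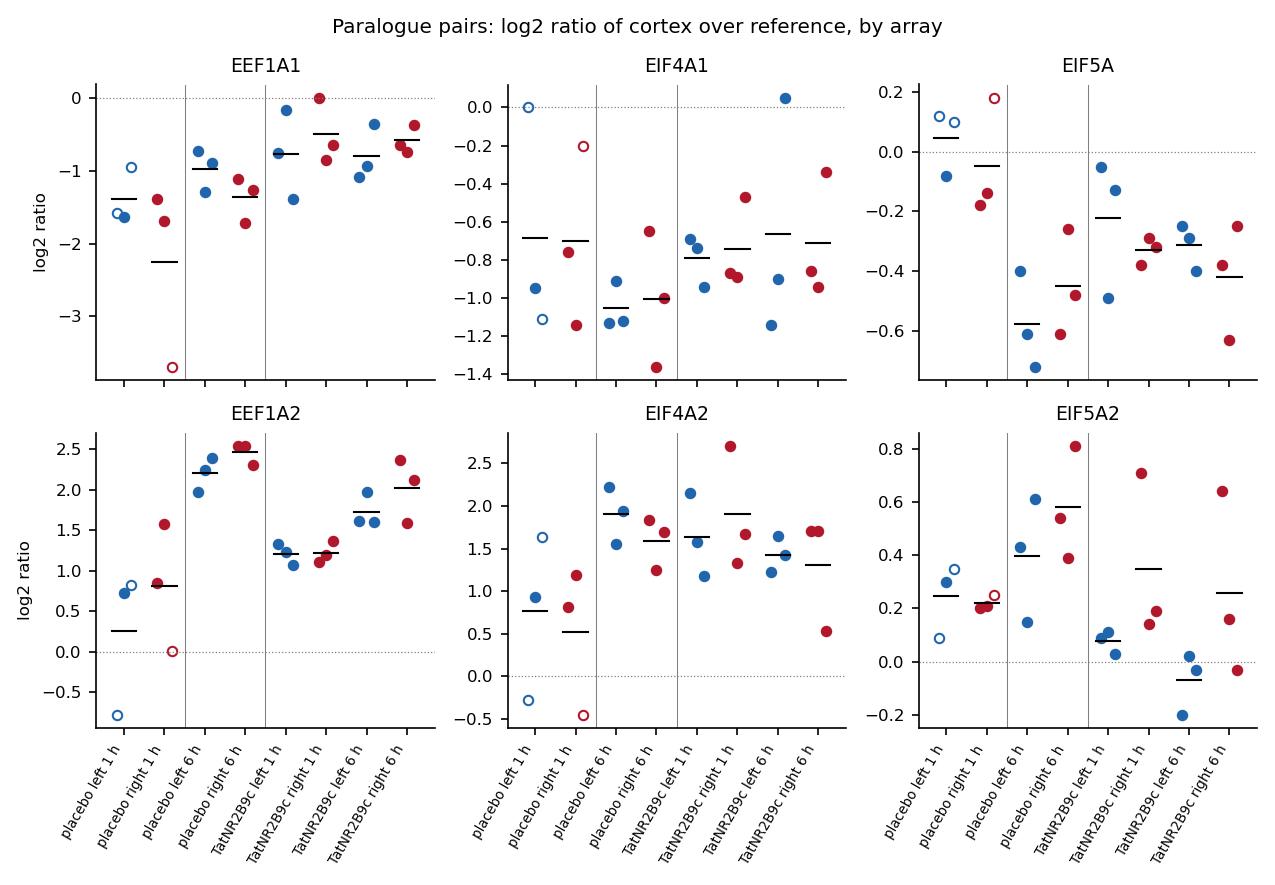
Log2 ratio of cortex over reference on each array for EEF1A1, EIF4A1 and EIF5A (top) and their paralogs EEF1A2, EIF4A2 and EIF5A2 (bottom), by group; blue is left and red right cortex, open circles are weak-reference arrays and black bars are means of 3 animals. The top genes were below 0 on 23, 23 and 21 of 24 arrays and the bottom genes above 0 on 23, 22 and 21; 2 of 3 EIF5A values in placebo left cortex at 1 h were above 0, and 2 of 3 EIF5A2 values in TatNR2B9c left cortex at 6 h were below it.

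Ischemic right cortex and left cortex did not differ detectably for any of these genes. In each of the 4 sets of animals, and in the mean of the 4, limma called 0 of 47 members, and it called 0% of all genes. At an unadjusted p under 0.05 there were 0, 1, 0 and 0 members in placebo animals at 1 h, placebo animals at 6 h, treated animals at 1 h and treated animals at 6 h, against 1.32, 3.87, 4.51 and 3.26% of all genes, and 1 member in the mean of the sets, against 3.8%. In that mean 20 members lay above 0 and 27 below, with a median of −0.03 (0 over all genes). All 47 of the 95% intervals of the mean difference lay between −0.77 and 0.73, so that a mean difference beyond 1 on the log2 scale is outside each of them. The median SE of this mean was 0.12. Within single sets the bound is wider, and 38 to 40 of the 47 intervals lay within 1. They reached −1.98 for EEF2K in treated animals at 1 h and 1.91 for EIF2B1 in placebo animals at 1 h.

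The extremes were small beside the spread between animals. EEF1A2 had right minus left differences of 1.62, 0.86 and −0.83 in placebo animals at 1 h, 0.58, 0.28 and −0.08 in placebo animals at 6 h, −0.21, −0.04 and 0.3 in treated animals at 1 h and 0.75, −0.38 and 0.53 in treated animals at 6 h. Its mean was 0.28 (SE 0.18, 95% interval −0.1 to 0.66, adjusted p = 0.887 by limma), the highest of the members. EIF4EBP2, the main EIF4E-binding protein of brain, had differences of −2.02, 0.17 and 1.07 in placebo animals at 1 h, −0.05, −0.05 and 0.3 in placebo animals at 6 h, −1.51, −0.68 and −0.19 in treated animals at 1 h and −0.13, 0.18 and 0.28 in treated animals at 6 h. With animals on both sides of 0 in 3 of the 4 sets, its mean of −0.22 (interval −0.77 to 0.33, adjusted p = 0.894) was the lowest. EIF5A2 was the member with the unadjusted p under 0.05: its differences were 0.1, −0.09 and −0.11 in placebo animals at 1 h, 0.11, 0.23 and 0.21 in placebo animals at 6 h, 0.62, 0.03 and 0.16 in treated animals at 1 h and 0.83, 0.14 and 0 in treated animals at 6 h. It was above 0 in 10 of 12 animals by a mean of 0.19 (SE 0.09, adjusted p = 0.887), and no member had the same sign in all 12.

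Some wide single differences came from weak-reference arrays. EIF2B1, the alpha subunit of EIF2B, differed by −0.1, 0.27 and 2.45 in placebo animals at 1 h, 0.3, −0.27 and 0.41 in placebo animals at 6 h, −0.07, −0.2 and 0.13 in treated animals at 1 h and 0.02, 0.03 and −0.42 in treated animals at 6 h; the third placebo animal at 1 h stands far above the others. EEF1G differed by −2.6, 0.02 and 0.19 in placebo animals at 1 h, −0.02, −0.31 and −0.67 in placebo animals at 6 h, −0.1, −0.45 and 0.76 in treated animals at 1 h and 0.63, −0.11 and 0.08 in treated animals at 6 h, and the first placebo animal at 1 h stands far below. EIF1AX differed by 0.82, 0.51 and −0.64 in placebo animals at 1 h, 0.43, 0.19 and 0.23 in placebo animals at 6 h, 0.51, 0.12 and −0.09 in treated animals at 1 h and 1.14, −0.14 and −0.49 in treated animals at 6 h, and EIF4E2 by −1.46, −0.02 and 1.03 in placebo animals at 1 h, −0.48, −0.74 and 0.4 in placebo animals at 6 h, −0.59, −0.61 and −0.27 in treated animals at 1 h and 0.27, 0.06 and −0.09 in treated animals at 6 h. EIF1AX and EIF4E2 likewise change sign between animals of a set. The means of EIF1AX, EIF2B1, EEF1G and EIF4E2 were 0.22, 0.21, −0.21 and −0.21. In 1 treated animal at 6 h, number 1, the right ratio exceeded the left for 41 of 47 members, with a median difference of 0.45 beside 0.22 over all genes. The share of all genes with that sign was not counted. The left array of this animal had 97.7% of sample and 99.3% of reference spots well above background. Its median member ratio of −0.25 was the lowest of all arrays. This array also enters the treatment comparison in left cortex at 6 h. EIF2AK2, the kinase PKR that senses double-stranded RNA, was the member with the unadjusted p under 0.05 in placebo animals at 6 h, at −0.36 (adjusted p = 1).

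**Figure D3:**
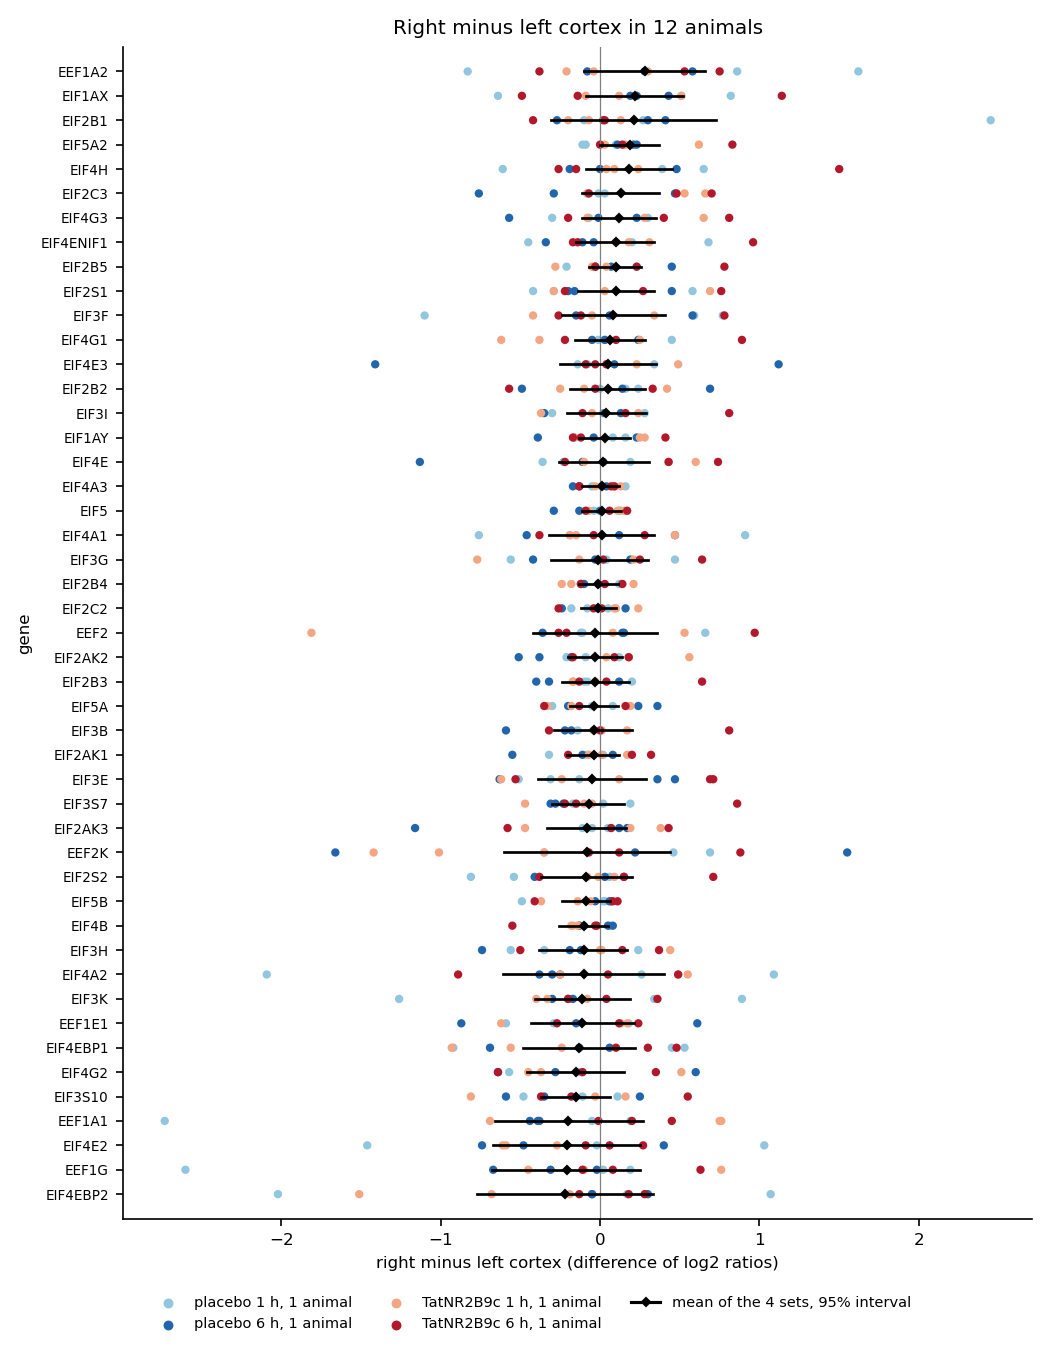
Right minus left log2 ratio for 47 genes: coloured points are the 12 animals by treatment and time, and black diamonds with bars are the limma mean of the 4 sets with its 95% interval. Points scatter on both sides of 0 and every black diamond lies between −0.22 and 0.28.

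In placebo animals, ratios at 6 h and 1 h were compared within each hemisphere. The times lie in separate campaigns, and time and campaign cannot be told apart. In right cortex limma called 12 of 47 members, 25.5%, against 40.8% of all genes, with 5 higher at 6 h (21.5% of all genes) and 7 lower (19.4%). In left cortex it called 14 of 47, 29.8%, against 54.1% of all genes, with 7 higher (30.8%) and 7 lower (23.3%). The same 12 genes were called on both sides with the same sign in all 12. EIF2AK2 and EIF2B4 were called in left cortex alone. The times did not overlap for any called member, and for 21 of all 47 members on the right and 22 on the left, against 59.7 and 63.9% of all genes. In placebo left cortex at 1 h the reference spots of EIF2B5, EIF3G, EIF3I, EIF4E2, EIF4ENIF1, EIF4EBP1 and EIF4EBP2 were well above background on 1 of 3 arrays. The directions below are those of the ratio after loess. With each array centred on its median instead, the median of all genes moved from 0.04 to −0.79 on the right. On the left it moved from 0.11 to −0.88. With that centring 33 of 40 called members on the right and 34 of 41 on the left were lower. Each gene called after loess whose direction flips with median centring is given with that value below. All called members lay farther from 0 at 6 h than at 1 h, as did 97.4 and 95.6% of all called genes on the right and left.

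Of the ternary complex factors, 1 of 6 rose on each side. EIF2S1, the EIF2 alpha subunit that the stress kinases phosphorylate, had log2 ratios of −0.11, 0.61 and 0.38 in left and 0.47, 0.31 and −0.05 in right placebo cortex at 1 h. At 6 h EIF2S1 lay at 1.55, 1.31 and 1.71 in left and 1.39, 1.77 and 1.51 in right placebo cortex. Every 6 h value lay above every 1 h value of its side. The rise was 1.31 (SE 0.23, adjusted p = 0.000286) on the right, a factor of 2.48, and 1.24 (SE 0.23, adjusted p = 0.000259) on the left, but −0.03 and 0.09 with the extraction software's own ratios. Its probe lies at chr7:130490647-130490706 on the plus strand, and its reference spot was not well above background on any placebo 1 h array. Under TatNR2B9c EIF2S1 lay at 0.22, 0.86 and 0.23 in left and 0.92, 0.58 and 0.26 in right cortex at 1 h, and 0.42, 0.98 and 0.5 in left and 1.18, 0.75 and 0.77 in right cortex at 6 h. EIF1AX had ratios of 0.64, 1.27 and 1.18 in left and 1.46, 1.77 and 0.55 in right placebo cortex at 1 h. At 6 h EIF1AX lay at 1.33, 1.39 and 1.53 in left and 1.76, 1.58 and 1.76 in right placebo cortex. It did not pass, at 0.44 and 0.39 on the right and left, and under TatNR2B9c it lay at 1.23, 1.25 and 1.17 in left and 1.74, 1.37 and 1.08 in right cortex at 1 h, and 0.42, 1.21 and 0.98 in left and 1.56, 1.07 and 0.49 in right cortex at 6 h.

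Of the exchange factor EIF2B, the catalytic epsilon subunit EIF2B5 rose on both sides and the delta subunit EIF2B4 on the left. EIF2B5 had ratios of 0.3, −0.1 and −0.18 in left and 0.09, −0.12 and 0.05 in right placebo cortex at 1 h. At 6 h EIF2B5 lay at 0.33, 0.56 and 0.51 in left and 0.78, 0.63 and 0.48 in right placebo cortex. The groups did not overlap, and the rise was 0.63 (SE 0.16, adjusted p = 0.00431) on the right and 0.46 (SE 0.16, adjusted p = 0.0206) on the left. With the software's ratios the values were −0.05 and −0.76, and with median centring −1.3 and −1.95. EIF2B4 had ratios of 0.04, 0.04 and −0.01 in left and 0.16, 0.17 and −0.01 in right placebo cortex at 1 h. At 6 h EIF2B4 lay at 0.44, 0.46 and 0.26 in left and 0.34, 0.33 and 0.26 in right placebo cortex. Its rise was 0.36 (SE 0.11, adjusted p = 0.0108) on the left and its difference 0.2 (SE 0.11, adjusted p = 0.152) on the right; with median centring the left value was −3.09. In treated animals EIF2B5 lay at 0.1, 0.33 and 0.09 in left and −0.18, 0.27 and 0.13 in right cortex at 1 h, and −0.18, 0.29 and 0.09 in left and 0.6, 0.26 and 0.32 in right cortex at 6 h, with the times overlapping. EIF2B1 had ratios of 0.31, 0.44 and −2.22 in left and 0.21, 0.71 and 0.23 in right placebo cortex at 1 h, and −0.14, −0.04 and −0.42 in left and 0.16, −0.32 and −0.01 in right cortex at 6 h; its lowest value came from a weak-reference array, and it did not pass, at −0.44 and 0.29.

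Among the EIF2 kinases, EIF2AK2 rose in left cortex. EIF2AK2 had ratios of 0.01, 0.21 and 0.22 in left and 0.12, 0.12 and 0 in right placebo cortex at 1 h, and 0.85, 0.51 and 0.52 in left and 0.34, 0.13 and 0.34 in right cortex at 6 h. All 3 left values at 6 h were above the left values at 1 h, by 0.49 (SE 0.16, adjusted p = 0.0175), and the right difference was 0.19 (SE 0.16, adjusted p = 0.367); with the software's ratios the left value was −0.05. EIF2AK1, the heme-regulated kinase, had ratios of 0.07, 0.09 and 0.2 in left and −0.02, 0.11 and −0.12 in right placebo cortex at 1 h, and 0, −0.03 and −0.31 in left and 0.09, −0.57 and −0.41 in right cortex at 6 h. EIF2AK3, the kinase PERK of the endoplasmic reticulum, had ratios of −0.15, −0.06 and −0.03 in left and −0.26, −0.01 and −0.08 in right placebo cortex at 1 h, and 0.41, 0.01 and 0.03 in left and −0.75, 0.18 and 0.14 in right cortex at 6 h. Neither passed: the right and left differences were −0.29 and −0.23 for EIF2AK1 (adjusted p = 0.153 and 0.232) and −0.03 and 0.23 for EIF2AK3 (adjusted p = 0.936 and 0.417). In treated animals EIF2AK1 lay at −0.06, −0.29 and −0.12 in left and −0.13, −0.12 and −0.11 in right cortex at 1 h, and −0.77, −0.34 and −0.23 in left and −0.45, −0.15 and −0.43 in right cortex at 6 h. EIF2AK2 lay at 0.06, −0.14 and −0.03 in left and 0.1, 0.42 and 0.15 in right cortex at 1 h, and 0.28, 0.67 and −0.08 in left and 0.37, 0.5 and 0.1 in right cortex at 6 h in those animals. For EIF2AK3 the treated values were 0.09, 0.19 and −0.35 in left and 0.28, −0.28 and 0.02 in right cortex at 1 h, and −0.17, −0.09 and 0.18 in left and −0.1, 0.34 and −0.4 in right cortex at 6 h. No kinase reached a ratio of 1 or −1 on any array. EIF2AK1 and EIF2AK2 had no reference spot well above background in placebo cortex at 1 h, and EIF2AK4 was not analysed here.

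Of EIF3, 3 of 9 members fell on both sides and none rose. EIF3E, a subunit also known as INT6, had ratios of 0.12, −0.06 and −0.08 in left and −0.39, −0.36 and −0.21 in right placebo cortex at 1 h. At 6 h EIF3E lay at −1.32, −1.5 and −1.79 in left and −1.96, −1.14 and −1.32 in right placebo cortex. All placebo values at 6 h were below all values at 1 h, with a difference of −1.15 (SE 0.32, adjusted p = 0.00803) on the right and −1.54 (SE 0.32, adjusted p = 0.000648) on the left. Under TatNR2B9c EIF3E lay at −0.25, −0.43 and −1.35 in left and −0.48, −1.05 and −1.23 in right cortex at 1 h, and −2.48, −1.89 and −1.05 in left and −1.76, −1.2 and −1.59 in right cortex at 6 h. The treated values at 6 h ran from −2.48 to −1.05, beside −1.96 to −1.14 in placebo animals. EIF3G had ratios of 0.15, −0.8 and −0.26 in left and −0.41, −0.75 and 0.22 in right placebo cortex at 1 h, and −1.14, −0.95 and −1.01 in left and −0.95, −0.98 and −1.43 in right cortex at 6 h, and EIF3I had ratios of 0.05, −0.44 and −0.12 in left and −0.25, −0.42 and 0.15 in right placebo cortex at 1 h, and −0.9, −0.85 and −1.26 in left and −0.78, −1.2 and −1.23 in right cortex at 6 h. Their falls were −0.81 (SE 0.29, adjusted p = 0.0344) and −0.89 (SE 0.24, adjusted p = 0.00564) on the right, and −0.73 (SE 0.29, adjusted p = 0.0422) and −0.83 (SE 0.24, adjusted p = 0.00623) on the left. In the sample channel alone the values were 1.69 for EIF3G and 0.55 for EIF3I on the right and 1.28, 0.59 and 1.14 for EIF3G, EIF3I and EIF3E on the left, above 0 rather than below it. The reference spot of EIF3E was well above background on no placebo left array at 1 h. The EIF3G call was lost without any of 4 of 6 arrays on the right and 5 of 6 on the left. EIF3F did not pass at −0.64 and −0.72, and the core subunit EIF3B at −0.53 and −0.26; the other 4 subunits lay between −0.14 (EIF3H, right) and 0.46 (EIF3K, left).

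EIF3G and EIF3I were each read by several probes, which gives a check within the same arrays; 2 probes of EIF3G and 3 of EIF3I are given. The probes are shown for that reason, 5′ to 3′ with their rheMac2 positions; lower case marks nothing, and the capitals in the last EIF3I probe mark the stop codon of its reading frame, at base 47.
EIF3G at chr19:9917779-9917838, minus strand, read for the gene: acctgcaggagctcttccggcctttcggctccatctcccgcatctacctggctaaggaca
EIF3G at chr19:9918972-9919031, minus strand: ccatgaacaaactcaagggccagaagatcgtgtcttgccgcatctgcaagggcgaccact
EIF3I at chr1:34986656-34986715, plus strand: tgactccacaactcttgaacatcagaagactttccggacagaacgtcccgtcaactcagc
EIF3I at chr1:34987065-34987124, plus strand: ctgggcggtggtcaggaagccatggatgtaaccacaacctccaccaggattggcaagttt
EIF3I at chr1:34988986-34989045, plus strand, read for the gene: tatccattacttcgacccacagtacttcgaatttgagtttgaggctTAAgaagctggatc

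In the order shown, the EIF3G probes fell by 0.81 and 1.12 on the right and by 0.73 and 1.12 on the left. The EIF3I probes fell by 0.98, 1.22 and 0.89 on the right and by 1.08, 1.09 and 0.83 on the left. All 5 probes thus gave a lower ratio at 6 h on both sides. They did not give the same answer for treatment in left cortex at 6 h, where the EIF3G probes lay at −0.36 (SE 0.29) and 0.61 (SE 0.2), and the EIF3I probes at 0.63 (SE 0.19), 0.81 (SE 0.17) and 0.27 (SE 0.23). For EIF3G and EIF3I the brightest of these probes gave the lowest treatment value. EIF3F, which was not called, was also read by 2 probes. Its brightest probe and the other one lay at −0.64 and −0.8 for placebo time on the right. On the left they lay at −0.72 (SE 0.31) and −0.19 (SE 0.5). For treatment in left cortex at 6 h they gave 0.3 (SE 0.31) and 0.16 (SE 0.5), with the brightest probe the higher.

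Of the 11 genes grouped with EIF4F and its helicases, 1 rose and 1 fell on each side. EIF4G3, a scaffold paralog of EIF4G1, had ratios of 0.12, 0.24 and 0.34 in left and 0.42, 0.17 and 0.05 in right placebo cortex at 1 h. At 6 h EIF4G3 lay at 1.74, 1.24 and 1.3 in left and 1.18, 1.23 and 1.53 in right placebo cortex. No 6 h value reached down to a 1 h value, and the rise was 1.1 (SE 0.22, adjusted p = 0.000692) on the right and 1.19 (SE 0.22, adjusted p = 0.000203) on the left, but −0.14 and 0.13 with the software's ratios; its reference spot too was well above background on no placebo left array at 1 h. In treated cortex EIF4G3 lay at 0.07, 0.53 and 0.16 in left and 0.72, 0.45 and 0.44 in right cortex at 1 h, and 0.34, 1.36 and 0.46 in left and 1.15, 1.16 and 0.86 in right cortex at 6 h. EIF4E2 had ratios of −0.03, −1.94 and −1.32 in left and −1.49, −1.96 and −0.29 in right placebo cortex at 1 h. At 6 h EIF4E2 lay at −2.35, −2.15 and −2.48 in left and −2.83, −2.89 and −2.08 in right placebo cortex. The 1 h values of 2 weak-reference arrays, left array 1 and right array 3, were near 0; the fall of −1.35 (SE 0.44, adjusted p = 0.0193) on the right and −1.23 (SE 0.44, adjusted p = 0.0237) on the left was lost without any of 3 of 6 arrays on either side, and was 0.36 and 0.34 with every array scaled to equal spread. TatNR2B9c animals had EIF4E2 at −1.29, −1.2 and −1.43 in left and −1.88, −1.81 and −1.7 in right cortex at 1 h, and −2.44, −2.24 and −1.26 in left and −2.18, −2.18 and −1.35 in right cortex at 6 h.

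The core members of EIF4F did not pass. EIF4E had ratios of 0.2, 0.46 and 0.5 in left and 0.39, 0.1 and 0.27 in right placebo cortex at 1 h. At 6 h EIF4E lay at 0.78, 0.51 and 0.46 in left and 0.67, −0.62 and 0.48 in right placebo cortex. The right and left differences were −0.08 (adjusted p = 0.842) and 0.2 (adjusted p = 0.555). EIF4G1 had ratios of −0.25, −0.4 and −0.8 in left and −0.26, −0.37 and −0.35 in right placebo cortex at 1 h, and −0.44, −0.47 and −0.48 in left and −0.41, −0.24 and −0.53 in right cortex at 6 h, which is a narrow range, with differences of −0.06 and 0.02 (adjusted p = 0.825 and 0.952). EIF4G2, a scaffold without the EIF4E-binding site, had ratios of 0.04, −0.2 and −0.17 in left and −0.08, −0.31 and −0.74 in right placebo cortex at 1 h, and 0.12, 0.02 and −0.36 in left and −0.16, −0.62 and 0.24 in right cortex at 6 h and differences of 0.2 and 0.03. EIF4A1 had ratios of 0, −0.95 and −1.11 in left and −0.76, −1.14 and −0.2 in right placebo cortex at 1 h, and −1.13, −0.91 and −1.12 in left and −0.65, −1.36 and −1 in right cortex at 6 h, and EIF4A2 had ratios of −0.28, 0.93 and 1.64 in left and 0.82, 1.19 and −0.45 in right placebo cortex at 1 h, and 2.22, 1.55 and 1.94 in left and 1.84, 1.25 and 1.69 in right cortex at 6 h. EIF4A1 overlapped between times. EIF4A2 came nearest to a call, at 1.08 (SE 0.48, adjusted p = 0.0823) and 1.14 (SE 0.48, adjusted p = 0.0536).

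Under TatNR2B9c EIF4E lay at 0.05, −0.2 and 0.25 in left and 0.48, 0.4 and 0.15 in right cortex at 1 h, and −0.81, −0.1 and 0.12 in left and −0.08, 0.33 and −0.1 in right cortex at 6 h. EIF4G1 under TatNR2B9c lay at −0.47, −0.32 and −0.84 in left and −1.08, −0.69 and −0.59 in right cortex at 1 h, and −1.35, −0.35 and −0.58 in left and −0.46, −0.57 and −0.48 in right cortex at 6 h, below 0 on every array. EIF4G2 under TatNR2B9c lay at 0.95, 0.13 and −0.04 in left and 0.59, −0.32 and 0.47 in right cortex at 1 h, and −0.16, 0.06 and 0 in left and 0.19, −0.05 and −0.64 in right cortex at 6 h, on both sides of 0 at both times. The helicases kept their sides, apart from 1 value of EIF4A1. EIF4A1 under TatNR2B9c lay at −0.69, −0.74 and −0.94 in left and −0.87, −0.89 and −0.47 in right cortex at 1 h, and −1.14, −0.9 and 0.05 in left and −0.86, −0.94 and −0.34 in right cortex at 6 h. EIF4A2 under TatNR2B9c lay at 2.15, 1.58 and 1.18 in left and 2.7, 1.33 and 1.67 in right cortex at 1 h, and 1.22, 1.65 and 1.42 in left and 1.7, 1.7 and 0.53 in right cortex at 6 h.

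The 3 proteins that bind EIF4E moved in opposite directions: both EIF4EBP genes fell on both sides and EIF4ENIF1, which carries EIF4E into the nucleus, rose on both. EIF4EBP2 had ratios of −0.09, −2.16 and −1.39 in left and −2.11, −2 and −0.31 in right placebo cortex at 1 h. At 6 h EIF4EBP2 lay at −3.4, −3.03 and −3.63 in left and −3.45, −3.08 and −3.33 in right placebo cortex. The 6 h values were the lowest of any placebo group, and the times did not overlap on either side. Its fall was −1.81 (SE 0.52, adjusted p = 0.0102) on the right and −2.14 (SE 0.52, adjusted p = 0.00227) on the left. The sample spot of EIF4EBP2 in placebo left cortex at 1 h was well above background on 2 of 3 arrays, and its reference spot on 1. With arrays scaled to equal spread the values were 0.29 and 0.02, and without placebo right 1 h array 3 the right value was −1.23 (adjusted p = 0.0871). EIF4EBP1 had ratios of −0.08, −1.31 and −0.55 in left and −1, −0.78 and −0.09 in right placebo cortex at 1 h. At 6 h EIF4EBP1 lay at −1.57, −1.36 and −2.07 in left and −2.26, −1.5 and −2.01 in right placebo cortex. It fell by 1.3 on the right (SE 0.33, adjusted p = 0.00483) and by 1.02 on the left (SE 0.33, adjusted p = 0.0153), where equal spread gave 0.1. EIF4ENIF1 had ratios of 0.11, 0.69 and 0.7 in left and 0.79, 0.89 and 0.25 in right placebo cortex at 1 h. At 6 h EIF4ENIF1 lay at 1.43, 1.36 and 1.53 in left and 1.32, 1.01 and 1.49 in right placebo cortex. Its groups did not overlap, and it rose by 0.63 (SE 0.23, adjusted p = 0.0374) on the right and 0.94 (SE 0.23, adjusted p = 0.00257) on the left. It was below 0 under 5 alternatives on both sides, from −1.57 to −0.26 on the right and from −1.63 to −0.01 on the left. The lowest value on each side was that with median centring.

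The binders were also measured under treatment. EIF4EBP2 in these animals lay at −0.77, −1.08 and −1.79 in left and −2.28, −1.76 and −1.99 in right cortex at 1 h, and −2.42, −1.7 and −1.12 in left and −2.54, −1.52 and −0.85 in right cortex at 6 h. EIF4EBP1 in these animals lay at −1.24, −0.81 and −0.49 in left and −1.8, −1.04 and −1.42 in right cortex at 1 h, and −1.44, −1.21 and −0.82 in left and −1.14, −1.11 and −0.35 in right cortex at 6 h. EIF4ENIF1 in these animals lay at 0.73, 0.67 and 0.67 in left and 1.04, 0.85 and 0.77 in right cortex at 1 h, and −0.09, 1.03 and 0.76 in left and 0.87, 0.86 and 0.62 in right cortex at 6 h. The times overlapped on each side for all 3.

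**Figure D4:**
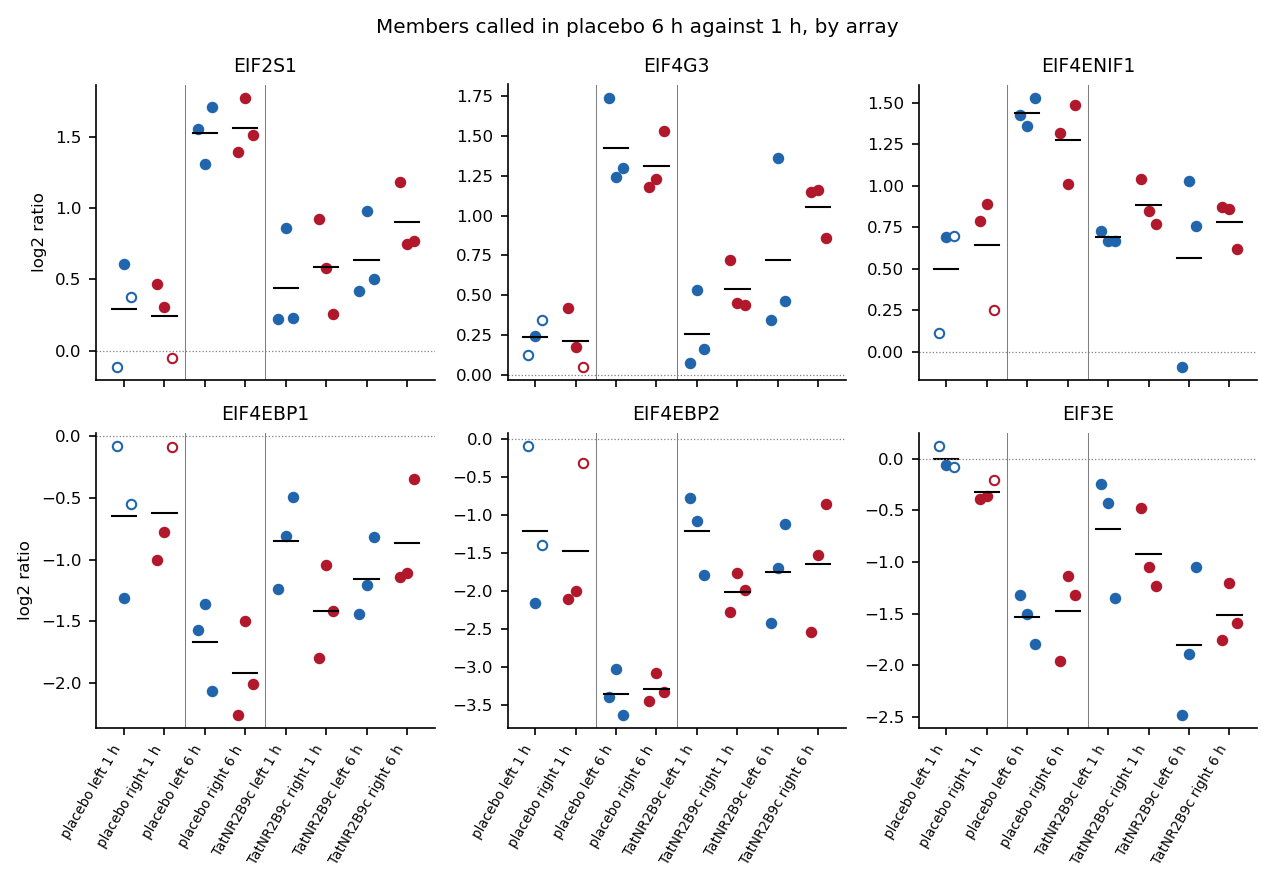
Log2 ratio of cortex over reference on each array for EIF2S1, EIF4G3, EIF4ENIF1, EIF4EBP1, EIF4EBP2 and EIF3E, by group; blue is left and red right cortex, open circles are weak-reference arrays and black bars are means of 3 animals. In placebo animals the 6 h points lie farther from 0 than the 1 h points in every panel, above it for the first 3 genes and below it for the other 3; with the extraction software's ratios the differences of EIF2S1 and EIF4G3 on the right and of EIF4ENIF1 on both sides were below 0.

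EIF5A fell on both sides. EIF5A had ratios of 0.12, −0.08 and 0.1 in left and −0.18, −0.14 and 0.18 in right placebo cortex at 1 h. At 6 h EIF5A lay at −0.4, −0.61 and −0.72 in left and −0.61, −0.26 and −0.48 in right placebo cortex. No placebo value at 6 h overlapped with a value at 1 h, and the fall was −0.4 (SE 0.14, adjusted p = 0.03) on the right and −0.63 (SE 0.14, adjusted p = 0.00129) on the left; the right call was lost without any of 3 of 6 arrays, and median centring gave 0.58 and 0.67. In TatNR2B9c cortex EIF5A lay at −0.05, −0.49 and −0.13 in left and −0.38, −0.29 and −0.32 in right cortex at 1 h, and −0.25, −0.29 and −0.4 in left and −0.38, −0.63 and −0.25 in right cortex at 6 h. Its spot was well above background in the sample channel on 15 of 24 arrays, and its reference spot on no placebo left array at 1 h. EIF5A2 did not pass, at 0.36 and 0.15.

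Of 6 elongation genes, EEF1A2 rose on both sides and the others did not pass. EEF1A2 had ratios of −0.78, 0.73 and 0.83 in left and 0.85, 1.58 and 0.01 in right placebo cortex at 1 h. At 6 h EEF1A2 lay at 1.97, 2.25 and 2.4 in left and 2.54, 2.54 and 2.31 in right placebo cortex. Each 6 h value exceeded each 1 h value of its side. The rise was 1.65 (SE 0.36, adjusted p = 0.00151) on the right, a factor of 3.14, and 1.94 (SE 0.36, adjusted p = 0.000235) on the left, a factor of 3.85, but −1.69 and −2.3 with median centring. EEF1A1 had ratios of −1.58, −1.63 and −0.95 in left and −1.39, −1.69 and −3.69 in right placebo cortex at 1 h. At 6 h EEF1A1 lay at −0.73, −1.29 and −0.89 in left and −1.11, −1.72 and −1.27 in right placebo cortex. Its lowest value came from a weak-reference array, and its differences were 0.88 (SE 0.44, adjusted p = 0.119) and 0.42 (SE 0.44, adjusted p = 0.433).

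EEF2, the translocation factor, had ratios of 0.28, −0.37 and −0.29 in left and 0.17, −0.49 and 0.37 in right placebo cortex at 1 h. At 6 h EEF2 lay at −0.31, −0.1 and −0.14 in left and −0.16, 0.04 and −0.51 in right placebo cortex. EEF2K, the kinase that inhibits it, had ratios of −0.31, 0.35 and 0.46 in left and 0.38, 0.81 and 0.1 in right placebo cortex at 1 h, and −0.17, −0.49 and −0.45 in left and −1.84, 1.06 and −0.23 in right cortex at 6 h. Both straddled 0 at both times, with right and left differences of −0.23 and −0.06 for EEF2 and −0.77 and −0.54 for EEF2K. EEF1G had ratios of 0.42, −2.19 and −1.92 in left and −2.18, −2.16 and −1.73 in right placebo cortex at 1 h. At 6 h EEF1G lay at −1.25, −1.49 and −1.24 in left and −1.27, −1.8 and −1.91 in right placebo cortex. With 1 left value above 0, from a weak-reference array, it differed by 0.36 and −0.1. In TatNR2B9c animals EEF1A2 lay at 1.33, 1.23 and 1.07 in left and 1.11, 1.19 and 1.37 in right cortex at 1 h, and 1.62, 1.97 and 1.6 in left and 2.37, 1.59 and 2.12 in right cortex at 6 h. EEF1A1 there lay at −0.75, −0.16 and −1.39 in left and 0, −0.85 and −0.64 in right cortex at 1 h, and −1.09, −0.94 and −0.36 in left and −0.64, −0.74 and −0.37 in right cortex at 6 h. These are all above −1.4, whereas the right placebo values at 1 h reached −3.69.

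Other measures moved with these placebo time differences, and their part in them was not tested. All 9 measured neuronal markers were called higher at 6 h on both sides, with a median difference of 2.56 on the right and 2.41 on the left, and the array means of these markers did not overlap between times (0.34 to 2.38 at 1 h, 3.68 to 4.16 at 6 h). Of 8 oligodendrocyte markers 4 were higher on the right and 7 on the left, and the red cell genes HBB and ALAS2 were lower on both. Of 8 astrocyte markers SLC1A2, SLC1A3 and SOX9 were higher on both sides and GFAP on the left. Of 8 microglial markers CD68, AIF1 and ITGAM were lower on the right and P2RY12 was higher on the left, and of 6 endothelial markers PECAM1 was lower on the right and TEK on the left. The reference channel moved as well: read alone, it called 16 of 47 members on the right and 22 on the left, against 23.2 and 30% of all genes. Read alone, the sample channel had the sign of the ratio for 8 of 12 called members on the right and 7 of 14 on the left. EEF1A2 rose in that channel by 1.81 (adjusted p = 4.23e-05) on the right and 1.22 (adjusted p = 0.00262) on the left. EIF2S1 rose there by 0.87 on the right (adjusted p = 0.036), with 0.34 on the left (adjusted p = 0.49). EIF4EBP2 gave −0.38 and −0.37, and its reference gave 0.22 and 0.6. EIF3G rose in both channels on both sides, by 1.69 and 1.28 in the sample channel and by 2.34 and 2.07 in the reference.

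**Figure D5:**
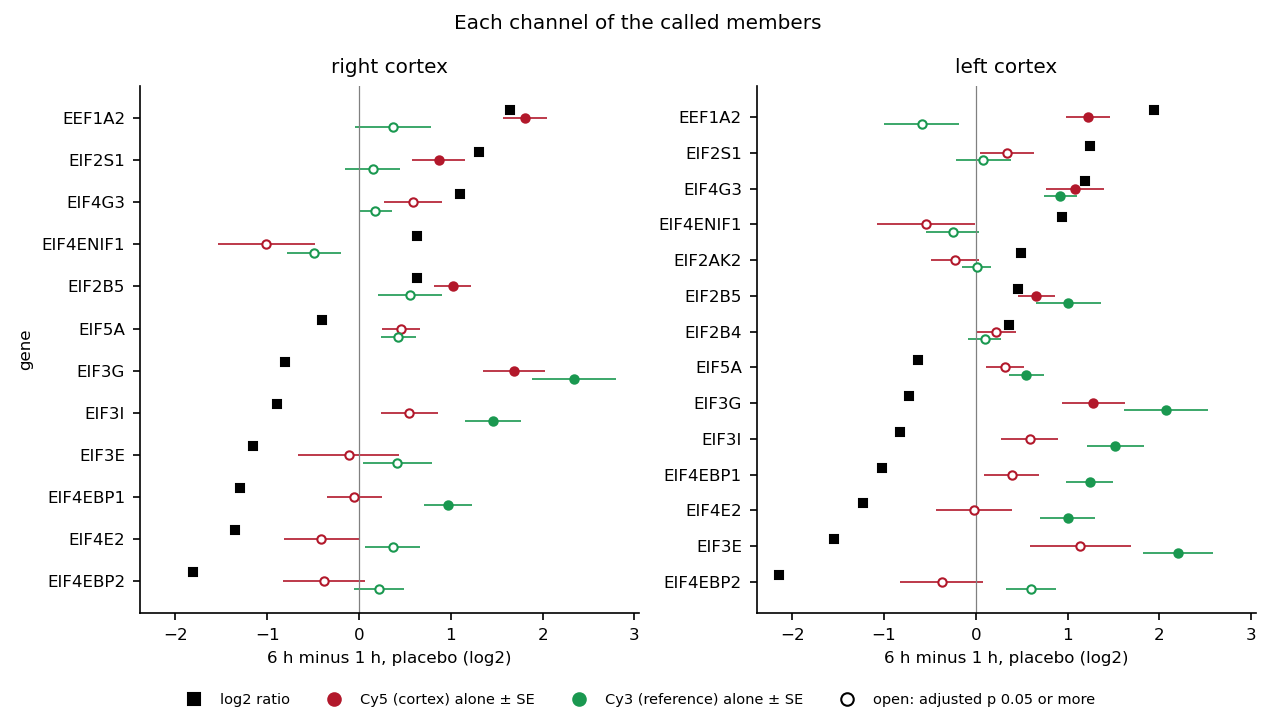
Difference at 6 h minus 1 h in placebo animals for the called members, right and left, on the log2 scale: black squares are the ratio, red points the sample channel alone and green points the reference channel alone with their SE, and open symbols have an adjusted p of 0.05 or more. EEF1A2 has a rise in the sample channel on both sides (and a fall in the ratio with median centring), whereas EIF3G and EIF3I have reference values above their sample values.

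Under TatNR2B9c both times lie in 1 campaign, though on partly different scan days. There limma called 0 of 47 members at 6 h against 1 h on either side, and 0% of all genes. At an unadjusted p under 0.05 there were 4 members on each side, against 19.4% of all genes on the right and 16.1% on the left. On the right these were EEF1A2 at 0.81 (adjusted p = 0.231), EEF2K at 1.16 (adjusted p = 0.214), EIF2C3 at 0.71 (adjusted p = 0.118) and EIF4G3 at 0.52 (adjusted p = 0.203). On the left they were EIF2C2 at 0.31, EIF2C3 at 0.72, EIF3E at −1.13 and EIF4G3 at 0.47, with adjusted p of 0.204, 0.197, 0.175 and 0.301. The smaller number of calls does not show that time acted differently under treatment, a difference that was not tested. EEF2K had treated values of −0.22, 0.42 and 0.82 in left and −1.24, 0.07 and −0.6 in right cortex at 1 h, and 0.06, 0.61 and 0.11 in left and 0.19, 0.54 and 0.99 in right cortex at 6 h. EEF2 had treated values of 0.24, −0.07 and −0.19 in left and −1.57, 0.01 and 0.34 in right cortex at 1 h, and −0.59, 0.3 and 0.09 in left and 0.38, 0.09 and −0.18 in right cortex at 6 h; 1 right value at 1 h is low for each gene, and both are from animal 1.

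TatNR2B9c was compared with placebo within each hemisphere and time; each such comparison also sets 1 campaign against another, and treatment and campaign cannot be told apart. In left cortex at 6 h limma called 6 of 47 members, 12.8%, against 24.3% of all genes, with 2 higher (10.6% of all genes) and 4 lower (13.6%). Of the 11 genes grouped with EIF4F 2 were lower, of the 3 EIF4E binders 1 was higher and 1 lower. Of the 6 ternary complex genes 1 was lower. No EIF2B, kinase, EIF3, EIF5A or elongation gene passed. In right cortex at 6 h it called 1 of 47, against 4.27% of all genes, and that was EIF2C3, higher (2.64% of all genes; 1.62% were lower). No call held with every array left out in turn.

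The lower genes in left cortex were all above 0 on every placebo array of that group. EIF2S1 lay at 0.42, 0.98 and 0.5 under TatNR2B9c and at 1.55, 1.31 and 1.71 under placebo, a difference of −0.89 (SE 0.23, adjusted p = 0.0105) or a factor of 1.86. EIF4ENIF1 lay at −0.09, 1.03 and 0.76 under TatNR2B9c and 1.43, 1.36 and 1.53 under placebo, a difference of −0.87 (SE 0.23, adjusted p = 0.0122). EIF4E lay at −0.81, −0.1 and 0.12 under TatNR2B9c and 0.78, 0.51 and 0.46 under placebo, a difference of −0.85 (SE 0.27, adjusted p = 0.0301). In these 3 genes the groups did not overlap, as was so for 10 of all 47 members and 33.5% of all genes. EIF4G3 lay at 0.34, 1.36 and 0.46 under TatNR2B9c and 1.74, 1.24 and 1.3 under placebo, with the second treated animal inside the placebo range, and differed by −0.71 (SE 0.22, adjusted p = 0.0243).

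EIF4EBP2 lay at −2.42, −1.7 and −1.12 under TatNR2B9c and at −3.4, −3.03 and −3.63 under placebo in left cortex. The treated values were higher by 1.61 (SE 0.52, adjusted p = 0.0324 by limma). EIF2C2 had placebo ratios of −0.03, 0.18 and 0.19 in left and 0.02, 0.1 and 0.01 in right placebo cortex at 1 h. At 6 h EIF2C2 lay at 0.04, 0.1 and −0.02 in left and 0.03, −0.14 and 0.14 in right placebo cortex. Its treated values were 0.06, 0.04 and 0.23 in left and 0.16, 0.28 and 0.33 in right cortex at 1 h, and 0.51, 0.33 and 0.41 in left and 0.25, 0.3 and 0.43 in right cortex at 6 h. All treated left values at 6 h lay above the placebo values, by 0.38 (SE 0.1, adjusted p = 0.0132). In 5 of these 6 genes the treated mean was the nearer to 0; over all genes called in this comparison 5.4% were farther from 0 under treatment. Just outside the limma threshold were EIF5A2 at −0.46 (adjusted p = 0.0594), EIF2B5 at −0.4 (adjusted p = 0.0749) and EIF1AY at −0.38 (adjusted p = 0.0804). The EIF1AY probe is placed on chromosome 20 of rheMac2, not on Y, despite its symbol. It was dim, with reference spots well above background on 11 of 24 arrays. Leaving out array 1 of the treated group gave 1 call, and leaving out array 1 of the placebo group gave 3. The sample channel alone had the sign of the ratio in all 6, with −2.23 (adjusted p = 0.000507) for EIF4E, 1.81 (adjusted p = 0.0358) for EIF2C2 and −0.01 for EIF2S1.

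EIF2C3, the member called in right cortex at 6 h, had placebo ratios of 0.13, 0.19 and 0.23 in left and 0.12, 0.21 and 0.14 in right placebo cortex at 1 h. At 6 h EIF2C3 lay at 0.84, 0.58 and 0.68 in left and 0.08, 1.04 and 0.39 in right placebo cortex. Its treated values were 0.22, 0.15 and 0.42 in left and 0.88, 0.67 and 0.34 in right cortex at 1 h, and 0.73, 1.59 and 0.61 in left and 1.21, 1.52 and 1.31 in right cortex at 6 h. The right groups at 6 h did not overlap, and the log2 difference was 0.84 (SE 0.23, adjusted p = 0.045), with a 95% interval of 0.36 to 1.33 on the log2 scale; the difference is a factor of 1.79. In that comparison 13 of 47 members and 30.2% of all genes had groups that did not overlap. Leaving out each of the 6 arrays in turn lost the call 4 times, with differences from 0.63 to 1.11. EIF4EBP2 was higher on the right as well without passing, at 1.65 (SE 0.52, adjusted p = 0.0806), as were EIF4EBP1 at 1.06 (SE 0.33, adjusted p = 0.0785) and EIF3I at 0.62 (SE 0.24, adjusted p = 0.139); EIF2S1 was at −0.65 (SE 0.23, adjusted p = 0.115). Beside these values, the red cell genes HBB and ALAS2 were higher in treated cortex at 6 h on both sides, 3 of 8 oligodendrocyte markers (MBP, CNP and OLIG2) were lower on the left, the astrocyte gene SLC1A2 was higher on both sides, the endothelial gene PECAM1 was higher on the left, and the neuronal markers had a median difference of −0.63 on the left and −0.6 on the right with none called; their part in the result was not tested.

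At 1 h limma called 0 of 47 members for treatment on either side, against 1.59% of all genes on the right and 0.89% on the left. At an unadjusted p under 0.05 there were 6 members on the right (13.8% of all genes) and 1 on the left (10.3%). EEF1A1 on the right came nearest, with 0, −0.85 and −0.64 under TatNR2B9c and −1.39, −1.69 and −3.69 under placebo. Its difference of 1.76 (SE 0.44, adjusted p = 0.0524) was 1.04 without the weak-reference array 3 and passed without array 1 or array 2 of that placebo group, and the sample channel alone gave −0.5. EIF4A2 differed by 1.38 (SE 0.48, adjusted p = 0.188) and EIF4EBP1 by −0.79 (SE 0.33, adjusted p = 0.289). On the left EEF1A2 differed by 0.95 (SE 0.36, adjusted p = 0.308), and by 0.43 without placebo left 1 h array 1.

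Whether the treatment difference itself depended on the hemisphere was tested with the interaction of both, within limma. It called 0 of 47 members and 0% of all genes at 1 h, and likewise 0 of 47 and 0% at 6 h. At an unadjusted p under 0.05 it had 0 members at either time, against 1.74 and 4.26% of all genes. The change of the right minus left difference from 1 h to 6 h gave 0 members and 0% of all genes, with 0 members at an unadjusted p under 0.05, against 1.54%. The 6 calls on the left and 1 on the right are therefore not shown to differ between hemispheres.

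Genes around these factors (release and recycling factors, cap and tail partners, mTOR and stress-response genes) give the same comparisons in a wider circle; 37 of the 41 listed were measured. In placebo animals 2 were called higher at 6 h and 6 lower on the right, and 6 higher and 8 lower on the left, against 40.8 and 54.1% of all genes in both directions together, with medians of −0.11 and −0.06 beside 0.04 and 0.11 over all genes; the medians of the members were −0.04 and 0.05. DDIT3, a transcription factor induced downstream of ATF4 in the stress response, rose by 0.98 (adjusted p = 0.00974) and 0.68 (adjusted p = 0.0482), and ATF4 by 0.67 on the left (adjusted p = 0.0393). PABPC1, the poly(A)-binding protein that EIF4G holds, fell by 0.95 and 1.42. PPP1R15B, the subunit that directs the phosphatase to EIF2 alpha, fell by 0.71 and 0.95. TSC2 was also higher on both sides, and PABPC4, PDCD4, CYFIP1 and TSFM were lower on both. On the left alone, RHEB, DENR and EEFSEC were also higher, and ABCE1 and NCK1 lower. These surrounding genes were not read with median centring or the other alternatives, under which some member differences changed sign. Under treatment in left cortex at 6 h 5 of 37 were called, against 24.3% of all genes: PPP1R15B was higher by 0.77 (adjusted p = 0.00304), the 4 lower genes were GSPT1, FMR1, EEFSEC and GFM2, and FMR1, an RNA-binding repressor of translation in neurons, was at −0.92 (adjusted p = 0.0133). The other comparisons called 0 of 37.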

How the data were processed

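Agilent rhesus macaque 60-mer arrays were read. Spot intensity of both channels, background intensity and flags were deposited by the authors as scanner output, per the file headers; the log10 ratio of red over green was deposited in the series matrix and equals the scanner's own ratio within 0.005, with column medians of 0 to 0.175. Versions 9.5.3.1, 10.5.1.1 and 10.7.3.1 of Agilent Feature Extraction are named per the file headers, and 10.7.3.1 alone per the submitters' processing notes. From the intensities, log2 ratios (Cy5 over Cy3) were computed here with limma 3.58.1 in R 4.3.3: normexp with offset 50, loess within arrays with control spots at weight 0, spots of a probe averaged. A probe was kept where 1 group or more had all its Cy5 spots well above background (17226 probes), and each gene was read from its brightest probe. lmFit and eBayes on all 24 arrays tested 16 comparisons (residual and prior df 18.5), and the same steps were tested on simulated data. Arrays have no read depth; 3 animals a group and signal over background set the precision.

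The members, gene lists and tests were chosen with earlier results of these data known. Genes given array by array were the called members with the 4 largest rises and falls of a comparison, the 3 highest and lowest right minus left means, and a list of the best known factors; others named fell outside that rule and were chosen after their values were seen. Alternatives were the software's processed signals, the series matrix, median centring, Cy5 alone, Cy3 alone (chosen after seeing the data), equal spread, no background subtraction, no filter, blocks of animal, slide or scan day, mean of probes, groups alone, leaving out the weak-reference arrays and leaving out each array. Left and right arrays of a number were taken as the same animal, which the labels do not say in words; the correlation of their deviations from the group means ran from −0.71 to 0.69 and was above 0.1 in 6 of 12 animals. The values of 1 EIF3G probe are not reported here. Figures were drawn with matplotlib 3.10.9.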

Additional observations from a re-analysis of the deposited data

Results flagged for a closer look

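The reference channel holds the same RNA on every array and was not meant to differ between groups. Read alone, it called 16 of the 47 members for 6 h against 1 h in placebo right cortex and 22 in placebo left cortex. For TatNR2B9c against placebo it called 14 members in right and 17 in left cortex at 1 h, and 2 in right and 1 in left cortex at 6 h. Over all genes the reference channel called 23.2 and 30% for placebo time, 20.8 and 27.6% for treatment at 1 h, and 2.41 and 2.53% for treatment at 6 h, on the right and left. These counts caught attention because they are signal outside the measurement that the comparisons address. Treatment and placebo time comparisons set 1 campaign against another. No member of a right against left comparison is among them.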

How the results depend on the processing

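No right against left comparison, interaction or right TatNR2B9c time comparison called a member under any alternative. With the animal as a replicate block, the pairing of left and right arrays left the other counts at 1, 6, 12 and 14. For treatment at 1 h the counts (0 on both sides in the report) were 2 right and 3 left with the software's processed signals and with the series matrix, 40 and 41 with median centring, and 13 and 18 with Cy5 alone; equal spread gave 2 on the left. For treatment in right cortex at 6 h (1 reported) processed signals, series matrix, median centring, equal spread, no background subtraction, scan day as a block and the groups alone gave 0, Cy5 alone 9, and leaving out the weak-reference arrays 3. In left cortex at 6 h (6 reported) processed signals, series matrix, equal spread and the groups alone gave 0, and Cy5 alone 11. For placebo time processed signals and series matrix gave 3 on the right (12 reported) and 7 on the left (14 reported), median centring 40 and 41, equal spread 1 and 0, and leaving out the weak-reference arrays 4 on the left; that leaves 1 array in placebo left cortex at 1 h, which limma takes to vary like the other groups.

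Leaving out each array in turn gave counts of 0 to 1 and 0 to 0 for treatment at 1 h right and left, 0 to 2 and 1 to 9 at 6 h, 7 to 13 and 10 to 16 for placebo time, and 0 to 2 for TatNR2B9c time on the left. The 7 right and 9 left placebo time calls that held in every such fit were of EEF1A2, EIF2B5, EIF2S1, EIF3E, EIF3I, EIF4EBP1 and EIF4G3 on the right, and of EEF1A2, EIF2B4, EIF2S1, EIF3E, EIF3I, EIF4EBP2, EIF4ENIF1, EIF4G3 and EIF5A on the left.

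Some placebo time differences changed sign, and the cause was not tested. On the right, median centring gave EEF1A2 −1.69, EIF2B5 −1.3, EIF4ENIF1 −1.57 and EIF5A 0.58; processed signals and the series matrix both gave EIF2B5 −0.05, EIF2S1 −0.03, EIF4ENIF1 −0.28 and EIF4G3 −0.14; Cy5 alone gave EIF3G 1.69, EIF3I 0.55, EIF4ENIF1 −1.01 and EIF5A 0.46; equal spread gave EIF4E2 0.36, EIF4EBP2 0.29 and EIF4ENIF1 −0.26. On the left, median centring gave EEF1A2 −2.3, EIF2B4 −3.09, EIF2B5 −1.95, EIF4ENIF1 −1.63 and EIF5A 0.67. Processed signals and the series matrix gave EIF2AK2 −0.05 and −0.06, and both gave EIF2B5 −0.76 and EIF4ENIF1 −0.22. Cy5 alone gave EIF2AK2 −0.23, EIF3E 1.14, EIF3G 1.28, EIF3I 0.59, EIF4EBP1 0.39, EIF4ENIF1 −0.54 and EIF5A 0.32, and equal spread gave EIF4E2 0.34, EIF4EBP1 0.1, EIF4EBP2 0.02 and EIF4ENIF1 −0.01. EIF3E and EIF4EBP1 on the right, EIF2S1 and EIF4G3 on the left and the 7 treatment calls at 6 h kept their sign under all 13 alternatives. Keeping the sign did not mean keeping the call: each treatment call was lost under 4 to 7 of the 13. Small values among these were −0.01 for EIF2S1 under treatment and, for placebo time, 0.01 for EIF2S1 on the left and −0.05 for EIF4EBP1 on the right. Of the 47 members, 12 had a reference spot well above background on all 24 arrays. EEF1A2 and EIF2B4, which changed sign with median centring, were among these 12.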
